A study of Mus musculus with 8 samples.

Results

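The genes described are 9 members of the p53 and cell survival network: Trp53, Mdm2, Mdm4, Cdkn1a, Ccng1, Sesn2, Zmat3, Bbc3 and Mcl1. They were taken by gene symbol from the deposited lists of N6-methyladenosine (m6A) sites, where all 9 were found among 10609 named genes. Together they carried 118 of the 85953 sites listed in at least 1 of 4 mouse TBLC libraries. TBLC, a mouse cell type named in the literature as totipotent blastomere-like cells, grew in MYCP medium and received a control siRNA (siNC, 2 libraries) or an siRNA against Virma (siVirma, 2 libraries). The other cells of the series are EPSC with the dCas13b-FTO system, given either a control guide (sgCtrl, 2 libraries) or a guide to Gata6 (sgGata6, 2 libraries). FTO is an m6A demethylase, and dCas13b carries it to the RNA that the guide matches. Strain, sex and the time after siRNA are not in the labels used here. The EPSC values were deposited as 1 pooled column per group. GLORI reads m6A base by base: chemical deamination makes plain adenosine read as G, and a methylated adenosine still reads as A. The m6A level used below is therefore the fraction of A among the A and G reads of a site. Nothing in the labels says that replicates were separate cultures, so a p-value speaks to library spread only, and that spread could be technical.

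p53, the product of Trp53, is a transcription factor that is held low by the ubiquitin ligase MDM2 and its partner MDM4. When stress frees it, p53 switches on genes for cell cycle arrest (Cdkn1a, which encodes the inhibitor p21), for stress and metabolic control (Sesn2), for apoptosis (Bbc3, which encodes PUMA) and for its own restraint (Mdm2). Ccng1, which encodes cyclin G1, and Zmat3, which encodes an RNA-binding zinc finger protein, are further p53 targets. MCL1 is an anti-apoptotic BCL2-family protein with a very short life, and PUMA binds it. Most m6A in mRNA is placed by the METTL3-METTL14 complex, for which VIRMA is a scaffold. The labels give no p53 status for these cells.

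The TBLC lists held between 2655963 and 4764955 A+G reads, and the members took 10430 to 21627 of them. The gene coverage given for Virma was 40.3 and 38.2 in siNC, against 24.0 and 22.8 in siVirma, or 0.531-fold relative to the median gene (log2 -0.91, SE 0.06). Of 20 genes of the 2-cell program, 14 had a listed site in a TBLC library, as did all 14 pluripotency genes and 18 of 20 fibroblast (feeder) markers. A gene with no m6A site is not in these lists, so an unlisted marker cannot be read as unexpressed.

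At sites that stayed listed, m6A fell on 7 of the 9 members after Virma knockdown, and Trp53 and Cdkn1a did not pass the test. The test sees only sites that remained at 0.1 or more in siVirma, which for Cdkn1a leaves out 3 deep sites that were in neither siVirma list. For each gene, reads were summed over its sites that every TBLC list holds at a depth of 20 A+G reads or more, and tested with edgeR's quasi-likelihood test at an adjusted p of 0.05. Of 5642 genes tested, 93.8% fell and 0.177% rose, so a fall is what most genes showed. No member rose, and neither edgeR nor limma put any at a higher level with an unadjusted p under 0.05. The median member kept 47.8% of its siNC level, beside 44.9% over all genes tested. The siVirma values were both under the lowest siNC value in these 7 members, beside 95.4% of all genes.

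**Figure D1:**
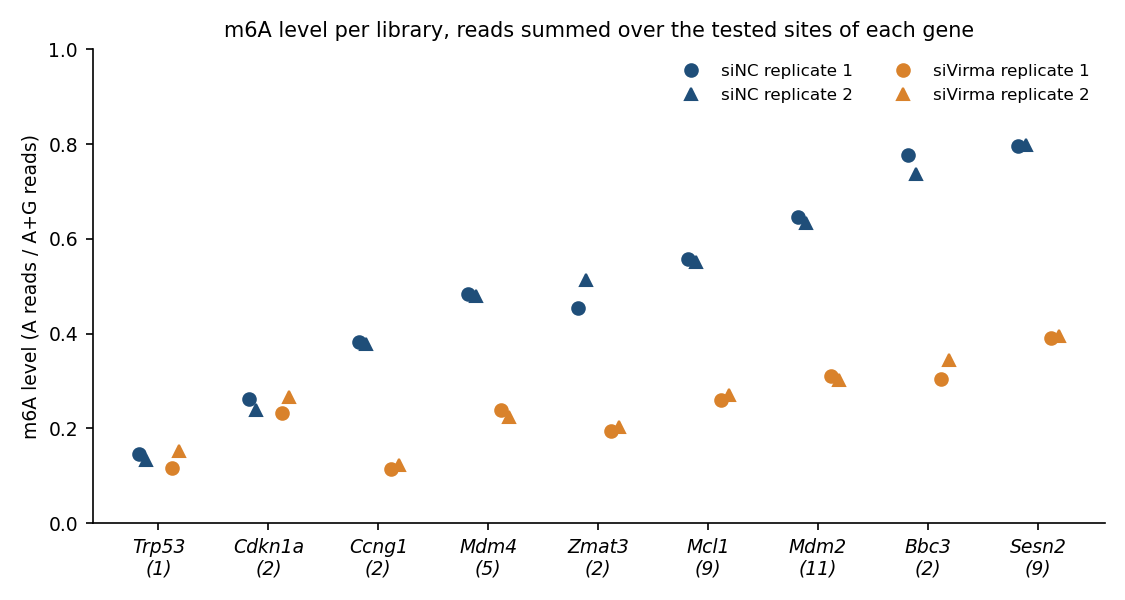
m6A level (vertical axis, A reads divided by A+G reads) of each gene in the 4 TBLC libraries, with reads summed over its tested sites; the number of sites is in brackets and each point is 1 library. Blue siNC and orange siVirma points are apart in 7 genes and overlap in Trp53 and Cdkn1a.

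Trp53 itself carried little m6A. Its 2 listed sites lay 25 nt apart on the plus strand of chromosome 11, at 69471204 and 69471229. At 69471204 the level was 0.145 and 0.133 in siNC, against 0.115 and 0.153 in siVirma, from 45 to 69 reads. The siNC values lay between the siVirma values, and the edgeR adjusted p was 0.913 (log2 change of the odds -0.06, SE 0.49). The second site had 0.131 and 0.168 in siNC and 0.141 in siVirma replicate 1, and was not in the list of siVirma replicate 2. No site is listed below a level of 0.1, so a larger fall at these sites would have removed them from the lists, and a site this low stays testable only where it falls little. No Trp53 site appeared in the EPSC table.

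Mdm2 and Mdm4, the negative regulators, lost a like share. Mdm2 had the most listed sites of the members, 26 within 1473 nt of chromosome 10 (117525149 to 117526621, minus strand). Over its 11 tested sites the level was 0.647 and 0.633 in siNC, against 0.31 and 0.303 in siVirma, and 47.8% remained (log2 odds -2.01, SE 0.06, edgeR adjusted p = 1.68e-29). All 11 sites fell. The highest was the site at 117526223, which fell from 0.905 ± 0.00261 to 0.533 ± 0.0144 (SD, n = 2) and kept the largest share of any Mdm2 site, 58.9%. Its neighbour 5 nt away, at 117526228, fell from 0.871 to 0.495. The smallest share, 37.6%, remained at 117525794, which fell from 0.465 to 0.175.

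Mdm4 had 21 listed sites over 4145 nt of chromosome 1 (132915767 to 132919911, minus strand), and 5 could be tested. Its level was 0.483 and 0.479 in siNC, against 0.238 and 0.225 in siVirma, and 48.2% remained (log2 odds -1.62, SE 0.13, edgeR adjusted p = 1.58e-15). Each of the 5 sites fell, and they kept between 45.0% (132919192) and 50.8% (132918763). The fall at 132918763, from 0.266 to 0.135, had an edgeR adjusted p of 0.0103, which rose past the threshold when either siVirma library was left out (0.0501 without replicate 1, 0.0543 without replicate 2). The highest site, at 132919698, fell from 0.603 ± 0.0797 to 0.291 ± 0.0533 (SD, n = 2).

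Cdkn1a, the p21 gene, combined sites that stayed listed and did not pass the test with sites that left the lists. Its 6 sites ran from 29312746 to 29319535 on the plus strand of chromosome 17. Only the 2 sites at the 5′ end, which lie 3 nt apart, were listed in all 4 libraries. At 29312746 the level was 0.352 and 0.25 in siNC, against 0.294 and 0.449 in siVirma. At 29312749 it was 0.224 and 0.233 in siNC, against 0.202 and 0.185 in siVirma. The groups overlap at the first site and not at the second, and neither site passed (edgeR adjusted p = 0.347 and 0.236). Summed over both, the level was 0.25 ± 0.0177 in siNC and 0.249 ± 0.024 in siVirma (SD, n = 2), with an edgeR adjusted p of 0.826 (log2 odds -0.04, SE 0.18).

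The 3 other Cdkn1a sites listed in both siNC libraries were in neither siVirma list. These lay downstream, at 29317455 (0.263 and 0.283), 29317527 (0.228 and 0.193) and 29319535 (0.301 and 0.304), where the figures are the siNC levels. They were among the deepest member sites, with 790 to 1160 reads in each siNC library. Cdkn1a coverage was not lower in siVirma: it was 660 and 624 in siNC, against 863 and 696 in siVirma. The depth of an unlisted site is not given, so these sites have no siVirma level and no test.

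**Figure D2:**
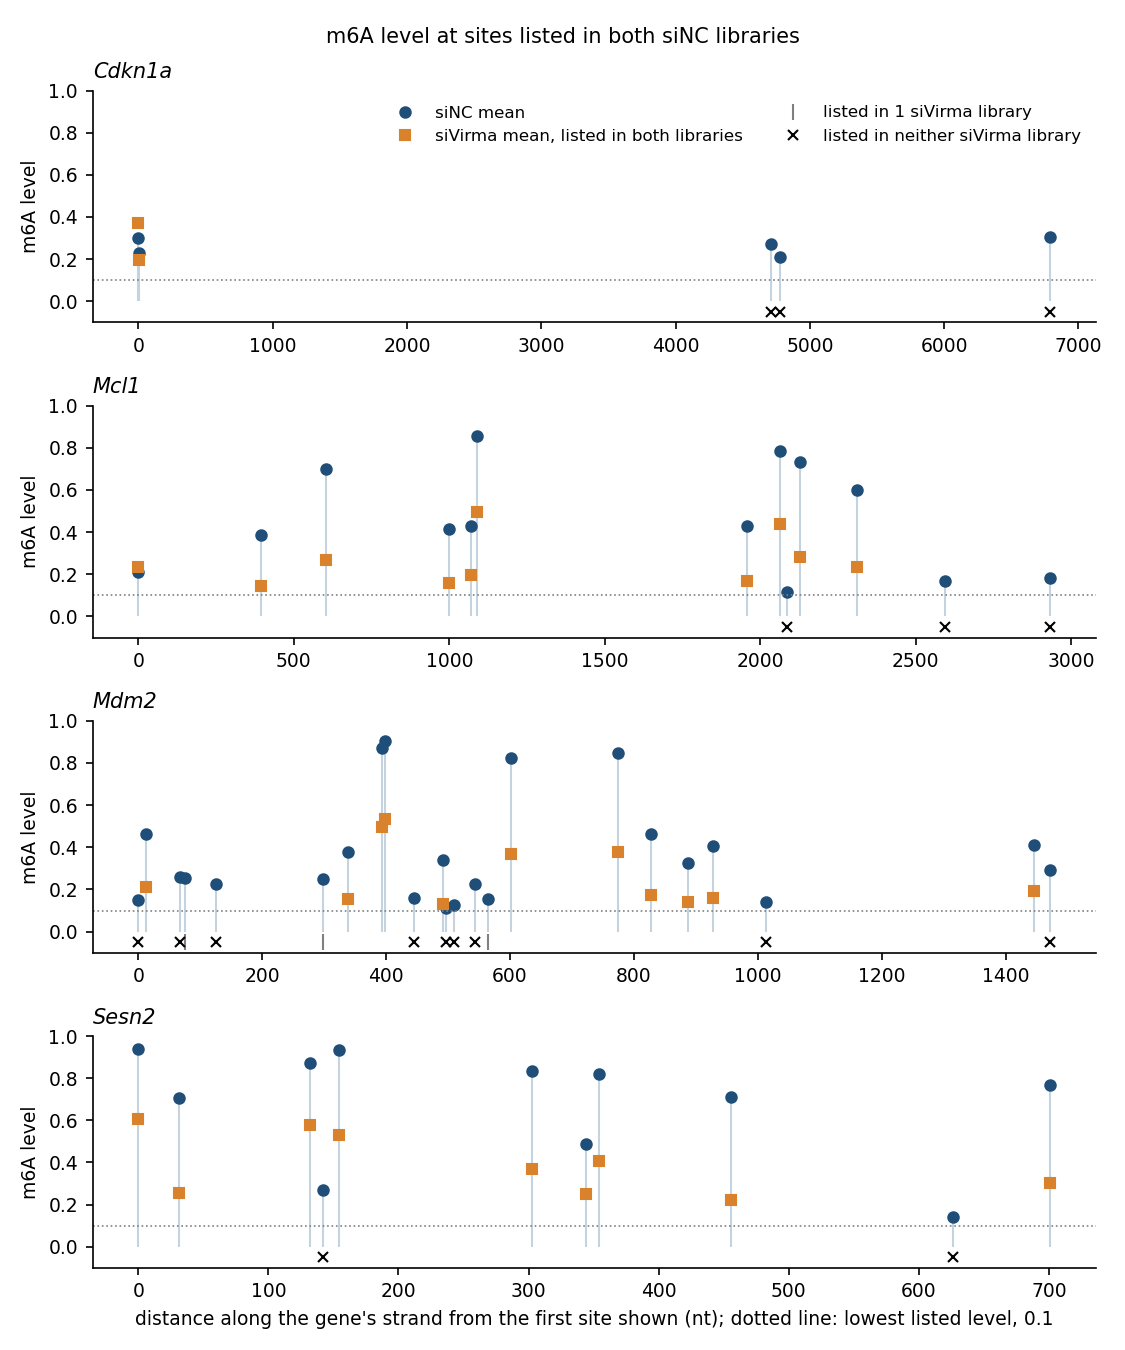
m6A level (vertical axis) against distance along the gene's strand in nt (horizontal axis) for Cdkn1a, Mcl1, Mdm2 and Sesn2 at sites listed in both siNC libraries; circles are siNC means, squares siVirma means, bars mark sites listed in 1 siVirma library and crosses sites in neither. In Cdkn1a the pair of sites at the 5′ end stays and the 3 downstream sites carry crosses, while in Sesn2 9 of 11 sites stay listed at a lower level.

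Ccng1, the other cell cycle gene of the set, kept the smallest share. Its 10 sites covered 4881 nt of chromosome 11 (40639861 to 40644741, minus strand). The 2 tested sites together had 0.383 and 0.377 in siNC, against 0.114 and 0.123 in siVirma, from at least 671 reads in each library. This left 31.2% (log2 odds -2.19, SE 0.13, edgeR adjusted p = 3.18e-20), and 5.83% of all genes tested kept as little or less. The site at 40644741 fell from 0.349 to 0.107 and that at 40641239 from 0.447 to 0.147. The first of these siVirma levels lies just over the lowest level listed, 0.1. Another 6 sites with siNC means of 0.174 to 0.28 were in neither siVirma list.

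Sesn2, which encodes the stress sensor sestrin 2, had the highest level of the 9 in siNC. Of its 13 sites, 12 lay between 132220239 and 132220962 on chromosome 4 (minus strand), and 1, listed in siNC replicate 2 alone, at 132237720. Its 9 tested sites together read 0.796 and 0.798 in siNC, against 0.391 and 0.396 in siVirma, and 49.3% remained (log2 odds -2.6, SE 0.07, edgeR adjusted p = 2.63e-31). Replicates differed far less than groups. The highest site, at 132220962, fell from 0.939 ± 0.00806 to 0.606 ± 0.0184 (SD, n = 2), keeping 64.6%. The share that remained ran from 31.5% at 132220506 (0.711 to 0.224) to 66.1% at 132220830 (0.871 to 0.576).

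Zmat3 lost most of its listed sites. Of 12 sites in both siNC libraries, 8 were in neither siVirma list and 2 were in both. The gene's 18 sites lay between 32390281 and 32395785 on chromosome 3 (minus strand). The 2 tested sites together had 0.454 and 0.513 in siNC, against 0.193 and 0.204 in siVirma, and 41.1% remained (log2 odds -1.91, SE 0.19, edgeR adjusted p = 2.14e-12). The site at 32394901 fell from 0.617 to 0.258 and that at 32395555 from 0.4 to 0.164. The site at 32394458 stood out among the lost ones. It had 0.63 and 0.588 in siNC, from 46 and 34 reads, and is the only member site with a siNC mean over 0.6 that was missing from both siVirma lists.

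The apoptosis genes Bbc3 and Mcl1 act against each other, and both lost m6A. Bbc3 had 5 sites within 655 nt of chromosome 7 (16051108 to 16051762, plus strand), at low depth. Its 2 tested sites together had 0.776 and 0.738 in siNC, against 0.304 and 0.344 in siVirma, from 58 to 79 reads (log2 odds -2.7, SE 0.36, edgeR adjusted p = 3.66e-09), and 42.8% remained. The site at 16051270 fell from 0.861 ± 0.0556 to 0.385 ± 0.0481 and that at 16051242 from 0.657 ± 0.108 to 0.264 ± 0.00337 (SD, n = 2).

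Mcl1 was the member with the most reads behind its value, at least 3330 in each library over 9 tested sites. Its 17 sites spanned 2969 nt of chromosome 3 (95566055 to 95569023, plus strand). The summed level was 0.558 and 0.551 in siNC, against 0.259 and 0.27 in siVirma, and 47.7% remained (log2 odds -1.79, SE 0.06, edgeR adjusted p = 9.62e-30). The site at 95567179 was the highest and fell from 0.855 ± 0.00251 to 0.494 ± 0.0392 (SD, n = 2). The smallest share remained at 95566485, 37.2% (0.385 to 0.143). One tested site did not fall: at 95566091, the second listed site from the 5′ end, the level was 0.19 and 0.233 in siNC, against 0.2 and 0.271 in siVirma (edgeR adjusted p = 0.618). There the groups overlapped.

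In siNC the levels summed over tested sites ran, from high to low, Sesn2, Bbc3, Mdm2, Mcl1, Zmat3, Mdm4, Ccng1, Cdkn1a and Trp53. Of the neighbours in that order, only Zmat3 and Mdm4 overlapped between replicates. The sums leave out sites missing from a siVirma list, so the order is not that of all siNC sites. Over the sites in both siNC lists, the median siNC mean of Mdm2 was 0.291, under that of Mdm4 (0.333) and Zmat3 (0.326). In siVirma the levels lay closer together. There Bbc3 overlapped with Mdm2, Cdkn1a with both Mcl1 and Mdm4, and Trp53 with Ccng1. Among 3154 other genes with at least 100 reads in every library, the 3 whose levels in the 4 libraries lay nearest to those of Mdm2 (Euclidean distance) were Nufip2 (0.636 in siNC, 0.298 in siVirma), Atp9b (0.633 and 0.306) and Dyrk3 (0.637 and 0.318).

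Site by site, 39 of the 43 tested member sites fell and none rose. Among all 20414 tested sites, 91.6% fell and 0.147% rose (edgeR, adjusted p of 0.05). Neither edgeR nor limma gave any member site a higher level with an unadjusted p under 0.05. The 4 sites that did not pass were those of Trp53, the pair in Cdkn1a and the one in Mcl1, and their siNC means ran from 0.139 to 0.301. The median member site kept 44.8% of its siNC level and the median of all sites 45.1%. The share kept varied with the starting level in the members as in the whole set. Among the 17 member sites that began between 0.3 and 0.5 in siNC, the median share was 40.8% (all sites 40.7%), and among the 7 at 0.85 or more it was 57.8% (all sites 59.7%). At a siNC level of 0.1 to 0.3, only 4 member sites could be tested, and their median was 90.5%, beside 58.7% for all 1271 such sites. Of these 4, 1 fell and 3 belong to the sites that did not pass. Of all 1271, only 603 fell and 8 rose, so not passing was common at such levels. Sites in this range had to stay above 0.1 in siVirma to be tested.

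**Figure D3:**
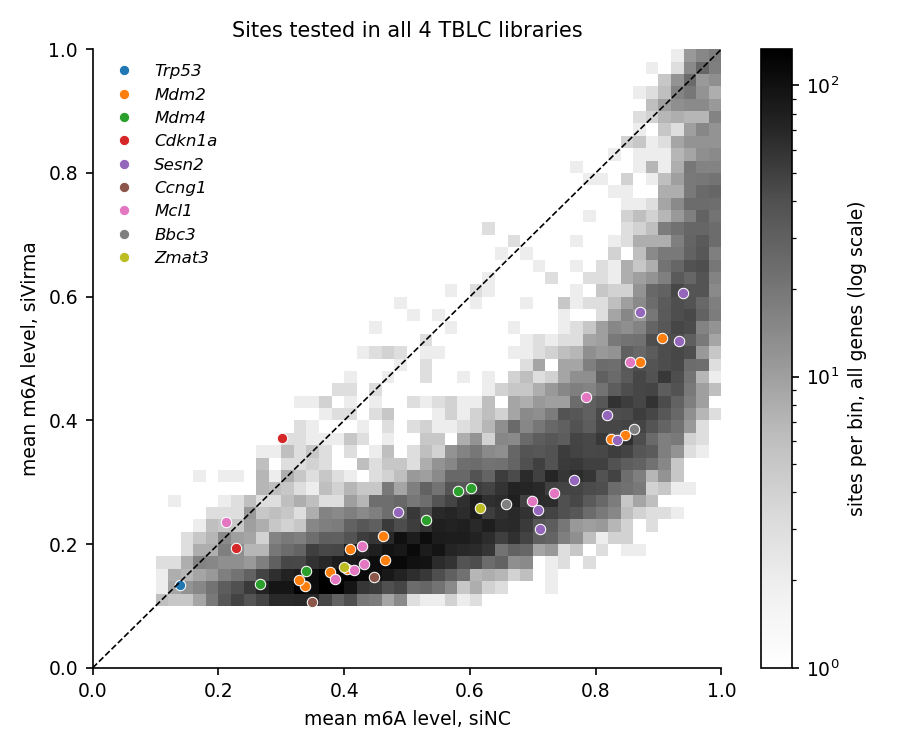
Mean m6A level per site in siNC (horizontal axis) and siVirma (vertical axis) for sites tested in all 4 TBLC libraries; coloured points are the 43 member sites, grey shading counts all 20414 sites per bin on a log scale, and the dashed line marks equal levels. The member sites lie along the grey band except 4 at low levels on or near the dashed line.

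Neighbouring adenosines of one transcript could carry very different levels. Member sites listed in both siNC libraries formed 11 neighbouring pairs within 12 nt, which can share reads. In Sesn2 the site at 132220820 had a siNC mean of 0.269, between sites at 132220808 (0.932) and 132220830 (0.871). In siVirma the outer sites had 0.529 and 0.576 and the middle site was unlisted. In Mdm4 the sites at 132919680, 132919688, 132919698 and 132919707 had siNC means of 0.339, 0.582, 0.603 and 0.129. The Mdm2 pair at 117526223 and 117526228 was alike, with means that differed by 0.0336.

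The number of listed sites on the members fell by 47.8%. It was 103 and 104 in siNC, against 52 and 56 in siVirma, so the groups were far apart. An exact permutation test (two-sided) returned p = 0.333, and 2 against 2 libraries allow none smaller. All listed sites, those without a gene name included, fell by 40.9%. Every member had fewer sites in siVirma on average, from Mdm2 (24 and 25 against 13 and 15) to Trp53 (2 and 2 against 2 and 1). Of 91 member sites listed in both siNC libraries, 48.4% were in both siVirma lists and 38.5% in neither, beside 47.1% and 33.1% of all sites. Member sites were deeper than most, with a median of 131 reads in the shallower siNC library beside 40 for all sites.

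The members differed in how many sites stayed. Sesn2 kept 9 of 11 in both siVirma lists and Mcl1 10 of 13, while Zmat3 kept 2 of 12 and Ccng1 2 of 9. Mdm2 kept 11 of 23, Mdm4 5 of 12, Cdkn1a 2 of 5, Bbc3 2 of 4 and Trp53 1 of 2. The share kept by a member did not closely follow the median siNC level of its sites. Sesn2 sites had a median siNC mean of 0.766, Bbc3 0.591, Mcl1 0.428, Mdm4 0.333, Zmat3 0.326, Mdm2 0.291, Ccng1 0.279, Cdkn1a 0.273 and Trp53 0.145. Thus Mdm2 kept a larger share than Zmat3 from a lower median, and Mcl1 a larger share than Bbc3. Within a gene the level often did separate the sites. In Mdm2 the sites in neither siVirma list had siNC means of 0.111 to 0.291, and those in both 0.328 to 0.905. The ranges were also apart in Sesn2, Ccng1, Mcl1 and Bbc3, but overlapped in Mdm4, Cdkn1a and Zmat3. Pooled over members, sites that began higher stayed listed more often. Of the 20 member sites with a siNC mean of 0.1 to 0.2, 1 (5.0%) was in both siVirma lists (all sites 2.83%). Of the 21 at 0.6 or more, 95.2% were (all sites 87.9%). In between, it was 14.3% at 0.2 to 0.3 (all sites 12.2%), 53.8% at 0.3 to 0.4 (33.2%) and 81.25% at 0.4 to 0.6 (61.2%). In the last 2 of these ranges the median depth of member sites was 106 and 111 reads, beside 34 and 32 for all sites. Sites found after knockdown alone were few: 1 in Mdm4, at 132919869 (0.35 of 20 reads in siVirma replicate 1), and 1 in Zmat3, at 32395692 (0.132 of 38 reads in siVirma replicate 2). No member site was in both siVirma lists and neither siNC list.

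**Figure D4:**
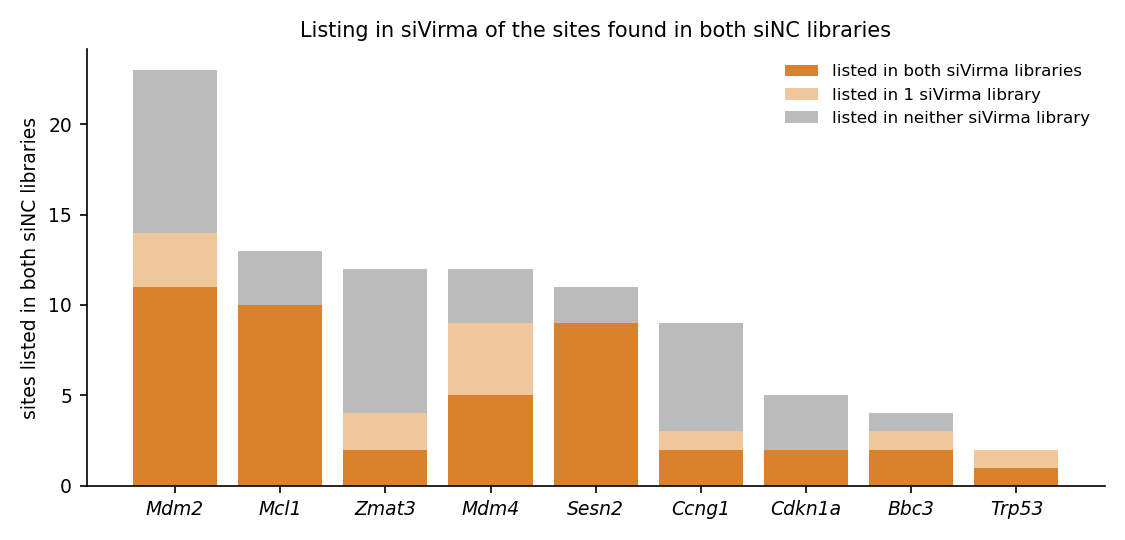
Number of sites listed in both siNC libraries for each gene (bar height, from 0), divided by whether they were listed in both, 1 or neither siVirma library. Sesn2 kept 9 of 11 and Mcl1 10 of 13 in both siVirma lists, and Zmat3 kept 2 of 12.

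The lists also give a conversion rate for each gene, which takes in more than the called sites as far as its name tells. The sources used here do not say how the authors computed it. Any plain adenosine that escaped conversion would also count as unconverted, so a share of this remainder is not a share of m6A. The unconverted remainder was lower in both siVirma libraries than in both siNC libraries for all 9 members, beside 95.8% of 6787 genes. In Sesn2 it was 3.59% and 3.66% in siNC, against 1.99% and 2.06% in siVirma, the highest of the members in each library. In Cdkn1a it was 1.32% and 1.33% in siNC, against 0.921% and 0.943% in siVirma, so 70.3% of it remained. The pair of tested Cdkn1a sites kept 99.6% of their m6A level, which is a different measure. Trp53 kept the largest part of its unconverted remainder of any member, 86.1% (1.01% and 0.938% against 0.815% and 0.864%). The median over all genes was 65.9%.

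In transcript coverage 3 of the 9 members were called, between 0.813-fold and 1.20-fold. Coverage was compared as log2 values with limma after centring each library on its median gene. The shift removed was 0.17 on the log2 scale, higher in siVirma, and all changes are relative to it. In all, 26.8% of 6787 genes passed, 12% as higher and 14.8% as lower. How coverage was scaled for gene length is not given, so values are compared within a gene only. In bulk RNA, fewer cells of a type and less RNA per cell cannot be told apart.

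Trp53 and Mdm2 fell and Zmat3 rose relative to the median gene. Trp53 coverage was 236 and 222 in siNC, against 238 and 184 in siVirma as deposited, and the groups overlap. Divided by the median gene of the library it was 6.02 and 5.91 against 5.12 and 4.59, or 0.813-fold (log2 -0.30, SE 0.06, limma adjusted p = 0.00767). Mdm2 had 149 and 140 against 147 and 128 as deposited, and 0.848-fold relative to the median gene (log2 -0.24, SE 0.05, limma adjusted p = 0.00749). Zmat3 had 61.5 and 57.9 against 88.2 and 73.7, which do not overlap, or 1.20-fold (log2 0.27, SE 0.05, limma adjusted p = 0.00293).

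Without siNC replicate 1 the limma adjusted p was 0.0501 for Trp53 and 0.0973 for Mdm2, so that 1 member was called in place of 3. Without centring no member passed, and 1 had an unadjusted p under 0.05 (limma adjusted p = 0.761 for Trp53, 0.876 for Mdm2 and 0.125 for Zmat3). The remaining members did not pass: Mdm4 was at 0.923-fold (limma adjusted p = 0.0935), Cdkn1a at 1.08-fold, Sesn2 at 1.03-fold, Ccng1 at 1.03-fold, and Mcl1 and Bbc3 at 0.993-fold and 0.991-fold, with limma adjusted p of 0.246 to 0.909. Markers of fibroblasts, the usual feeder cells, moved with the groups as well. Of 11 with a coverage value, 9 were higher and 0 lower by limma, and their median log2 change relative to the median gene was 0.34. Dcn and Acta2 had no listed site. Among the 2-cell program genes 10 had a coverage value, with 0 higher and 4 lower. Among the pluripotency genes 12 had one, with 1 higher and 3 lower. The part of these markers in the members' coverage was not tested.

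**Figure D5:**
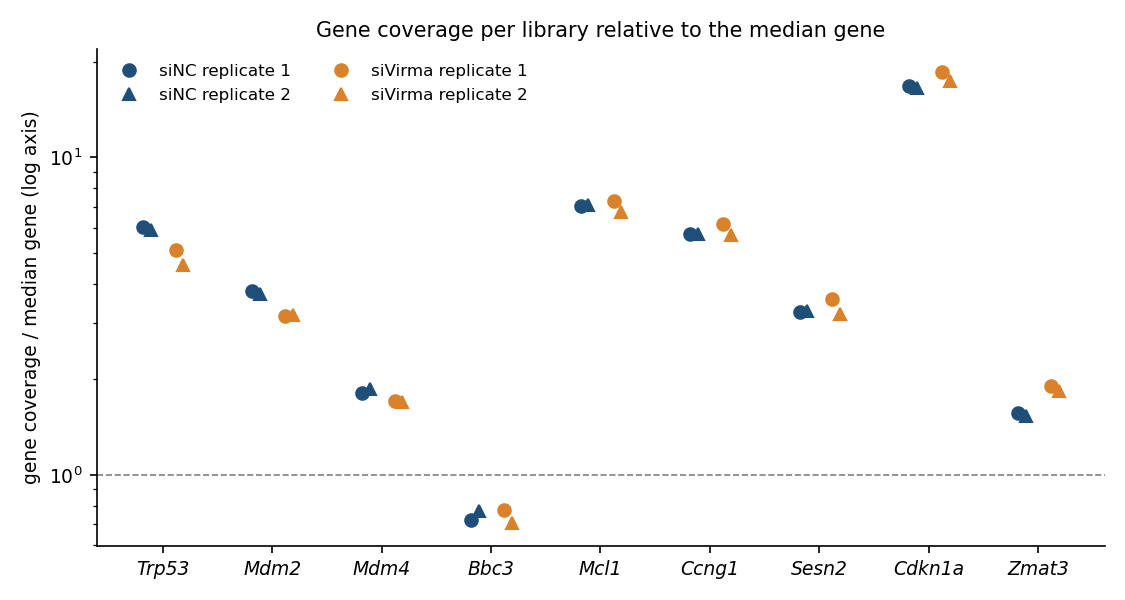
Gene coverage in each TBLC library divided by that library's median gene (vertical log axis), with members ordered by their log2 change; each point is 1 library and the dashed line marks the median gene. Trp53 and Mdm2 sit lower in both siVirma libraries and Zmat3 higher.

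Other genes of the pathway fell about as often as genes in general. Of 96 genes in 4 related lists, 57 could be tested and 55 fell, beside 93.8% of all 5642 genes; neither edgeR nor limma gave any of them a higher level with an unadjusted p under 0.05. Of the p53 regulators and damage kinases, 17 of 18 fell, with a median of 44.0% remaining, beside 44.9% over all genes tested. Among them Usp10, a deubiquitinase that acts on p53, fell from 0.81 to 0.357, and the ubiquitin ligase gene Huwe1 from 0.58 to 0.291. Rpl11, a ribosomal protein gene whose product binds MDM2, did not pass at its single site (0.412 to 0.26, edgeR adjusted p = 0.0902), and its reads may be shared with pseudogene copies.

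All 23 other p53 target genes tested fell, with a median of 46.2% remaining, again close to the 93.8% and 44.9% of all genes. Phlda3, which encodes an inhibitor of AKT signalling, fell from 0.781 to 0.341 and the kinase gene Plk2 from 0.538 to 0.23. All 6 tested BCL2-family genes fell and kept a median of 53.3%, beside 93.8% falling and 44.9% kept over all genes. The pro-apoptotic Bid fell from 0.64 to 0.376 and Bcl2l1, which encodes BCL-XL, from 0.782 to 0.432. Among caspases and inhibitors of apoptosis 9 of 10 fell, including Birc5, which encodes survivin (0.598 to 0.22), and Birc2 (0.661 to 0.34). The single site of Cycs, the cytochrome c gene, had 0.456 in siNC and 0.418 in siVirma (edgeR adjusted p = 0.566), with the same reserve on pseudogene copies. In coverage, 9 of the 62 genes with a value in these lists were higher and 12 lower by limma, which is 14.5% and 19.4%, beside 12% and 14.8% of all genes.

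In EPSC no tested member site was called between sgGata6 and sgCtrl. Member sites were shallow, with a median of 26 A+G reads in sgCtrl and 34.5 in sgGata6, so a change could be missed. The pooled table held 52 member sites out of 19342, none in Trp53, and 29 had at least 20 A+G reads in each group. None passed Fisher's exact test after adjustment over all 10185 sites tested, where 0.255% were called lower and 0.0196% higher in sgGata6. Without adjustment 3 of the 29 had p under 0.05, beside 11.8% of all sites. The 29 sites had a summed level of 0.354 in sgCtrl (693 of 1959 reads, 95% Wilson interval 0.333 to 0.375) and 0.34 in sgGata6 (841 of 2475 reads, 0.321 to 0.359). These intervals cover counting error only, and the test compares pooled reads and not the conditions.

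The lowest Fisher's exact p was at the Cdkn1a site 29317527, with 0.344 in sgCtrl (11 of 32 reads, 0.204 to 0.517) and 0.0909 in sgGata6 (4 of 44 reads, 0.0359 to 0.212; p = 0.00872, adjusted p = 0.214). The other 2 were the Ccng1 site 40641781 (0.162 of 37 reads and 0.0299 of 67 reads, Fisher's exact p = 0.0228) and the Mcl1 site 95567090 (0.526 of 114 reads and 0.394 of 137 reads, Fisher's exact p = 0.0419). Mcl1 gave the most reads, and its 11 tested sites had 0.354 in sgCtrl and 0.351 in sgGata6 when summed. Mdm2 had 0.531 and 0.513 over 6 sites, and Cdkn1a 0.351 and 0.242 over 3. Such sums weight each site by its reads, which differ between the 2 columns. Site by site, 5 Mdm2 sites were higher in sgGata6 and 1 lower, with a median difference of 0.0276. In Mcl1, 5 were higher and 6 lower, and all 3 Cdkn1a sites were lower.

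All 3 Cdkn1a sites of the EPSC table are the ones that left the siVirma lists in TBLC. In sgCtrl they had 0.343 (29317455), 0.344 (29317527) and 0.37 (29319535), from 27 to 35 reads, beside siNC means of 0.273, 0.211 and 0.303. The pair at the 5′ end was not in the EPSC table. Across the 26 tested member sites that were also in both siNC lists, the median level was 0.408 in siNC and 0.358 in sgCtrl, and 16 sites were lower in sgCtrl. Over all 7238 such sites the medians were 0.357 and 0.3, and 5014 were lower in sgCtrl. Taken site by site, the median of sgCtrl minus siNC was -0.0436 over all 7238 sites and -0.0171 over the 26 member sites. The correlation of the 2 levels over these sites was 0.924, and 0.919 over all of them; the sites share libraries, so it is given as a description. EPSC and TBLC are different cells and came from separate tables and depths. The sgCtrl cells also had the dCas13b-FTO system, and the siNC cells a control siRNA. These cannot be told apart here, so the difference between sgCtrl and siNC has no test.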

How the data were processed

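Per the labels' protocols, mRNA was treated by GLORI and read on a NovaSeq. The submitters' processing notes name the build mm39. The sources used here do not give the aligner or site caller. Each deposited TBLC list gives counts of A+G and A reads per called site, the level as a fraction, for each gene a conversion rate (a fraction), and a coverage signal, per the file headers. The authors' p-value per site was not used here. Listed sites had at least 15 A+G reads, 5 A reads and a level of 0.1. The deposited EPSC table holds counts pooled per group, so the edgeR test planned for single libraries gave way to Fisher's exact test.

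Groups came from the sample titles. For levels, the quasi-likelihood test of edgeR 4.0.16 (R 4.3.3) was run on methylated and unmethylated counts, with a term per library, over sites listed in all 4 TBLC libraries with at least 20 reads; coverage was tested with limma 3.58.1. P-values were adjusted over all features (Benjamini-Hochberg). The tests were tried on simulated data. Members, related lists and naming rules were chosen with earlier results of these data known. Text names all members, per member the site with the highest siNC level and those with the lowest and highest remaining share, sites that did not pass, and the 2 genes with the lowest p per related list. No mm39 genome or annotation was used, so exons, UTRs and the sequence around sites are not stated. Figures used matplotlib 3.10.9.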

Additional observations from a re-analysis of the deposited data

How the results depend on the processing

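The count of members with lower m6A was 7 in each alternative run except 6 of 7 tested with a minimum of 50 reads, where Bbc3 and Trp53 had no site left. It was 7 with the replicate block, and 39 sites then fell, as without it; leaving out single libraries gave 39 to 42 sites. With a minimum of 50 reads 8504 of 9010 sites of all genes fell, since fewer were tested. The replicate number was not shown to pair libraries: deviations of same-numbered libraries correlated at -0.0078 for gene levels and 0.138 for coverage, and the block kept 3 members called in coverage. The fall in listed member sites was -56.8% for levels of at least 0.2, and -49.8% to -45.9% with a library left out. Members called in coverage numbered 0 without centring and 1 to 3 with a library left out. Over all genes, calls without centring were 283 higher and 25 lower, against 815 and 1005 with it, and 221 and 291 without siVirma replicate 1. Changes that missed the threshold also changed sign. Cdkn1a was 0.0179 by the mean of site levels and -0.018 to 0.016 with a library left out, and Trp53 and its site -0.0123 to 0.0134 and -0.0237 to 0.0134. The Cdkn1a site 29312746 ran from -0.00707 to 0.148 and the Mcl1 site 95566091 from -0.0116 to 0.0593. In coverage (log2), without centring Mdm4 was 0.0513, Mcl1 0.156 and Bbc3 0.153; with a library left out Sesn2 ran from -0.0277 to 0.13, Ccng1 from -0.0175 to 0.10, Mcl1 from -0.0625 to 0.0475 and Bbc3 from -0.0782 to 0.0569. The cause was not tested. Depth limits Bbc3 and Trp53 most.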

Other observations

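The member sites that did not pass lay toward the 5′ end of their genes' listed sites, but most tested member sites placed there fell. Ranked along the strand, the Cdkn1a pair were sites 1 and 2 of 6 and the Mcl1 site was 2 of 17. This was noticed after the member values were seen and has no test. Genes with at least 5 listed sites were divided by rank along the strand. Among members, 3 of 10 tested sites in the part nearest the 5′ end did not fall, beside 0 of 32 others. Over all such genes it was 8.15% of 3792 sites, beside 4.26% of 13843 others. The 10 member sites also began lower, with a median siNC level of 0.393, beside 0.61 for the 32 others. Over all such genes both medians were 0.652. The Cdkn1a pair, which is among the 3, lies 3 nt apart and can share reads. The part of the starting level was not tested. The Ccng1 site 40644741 (1 of 10) fell and kept 30.5%, and the Mdm2 site 117526608 (2 of 26) fell and kept 46.1%. Trp53 has 2 listed sites, of which the first did not pass and the other could not be tested.

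Coverage of other p53 targets went both ways by limma relative to the median gene. Btg2 was at 1.44-fold and Aen at 1.35-fold in siVirma, and Gadd45a at 0.784-fold and Pmaip1, which encodes the pro-apoptotic NOXA, at 0.82-fold. The largest fall was that of Tnfrsf23, at 0.511-fold. Of the 27 such genes with a coverage value, 5 were called higher and 6 lower, beside 12% and 14.8% of all genes. The genes named here were picked after their values were seen.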
